A study of Mus musculus with 24 samples.

Results

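The 10 genes described here belong to the crypt base stem cell and to the Wnt pathway. They were chosen by name, with earlier results of these data known: *Lgr5*, *Olfm4*, *Ascl2*, *Smoc2*, *Axin2*, *Rnf43*, *Znrf3*, *Sox9*, *Tnfrsf19* and *Rgmb*. They are 10 of the 53465 genes in the deposited count table, and all 10 passed the filter on low counts that left 15044 genes for testing. RNA was sequenced from intestinal epithelium of the Guca2a-Venus mouse, in which the yellow fluorescent protein Venus is driven by the promoter of *Guca2a*, the gene of the gut peptide guanylin. The line descends from 1 founder with a bacterial artificial chromosome in which Venus replaced the *Guca2a* coding region, so cells were sorted on the activity of that transgene. Cells with high Venus fluorescence (positive, labelled GFP positive) and cells without fluorescence (negative) were sorted from duodenum, jejunum, ileum and colon, with dead cells, debris and CD45-bearing immune cells gated out. This gave 8 groups of 3 libraries from 3 mice. All mice carried the transgene, had been backcrossed to C57Bl6J to different degrees, and were kept on standard chow, and their age is not given in the sources used here.

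The epithelium of the gut is renewed from stem cells at the base of its crypts, which depend on Wnt signals. Wnt ligands bound by Frizzled and LRP receptors halt the destruction complex that degrades beta-catenin, and beta-catenin then acts with TCF factors on target genes. R-spondins, through LGR receptors, remove the membrane ubiquitin ligases RNF43 and ZNRF3, which otherwise clear Frizzled from the cell surface. Several targets, *Axin2*, *Rnf43* and *Znrf3* among them, restrain the pathway in return. BMP signals are strongest away from the crypt base and oppose stem cell programmes there.

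Gene counts per library ran from 7458616 to 23063124, of which mitochondrial genes took 32.3% to 80.7%. The mitochondrial share moved with the sort in the small intestine. It was 32.3% to 46.6% in positive and 64.6% to 76.4% in negative cells of the duodenum, 47.1% to 60.6% and 61.2% to 78.8% in jejunum, and 41.0% to 55.4% and 64.7% to 70.9% in ileum, whereas in colon the sorts overlapped at 68.6% to 77.9% and 65.3% to 80.7%. Its part in the differences described here was not tested. The unit of level throughout is CPM, with library sizes adjusted by edgeR's TMM factors. A count of 3, taken as the floor of detection, was worth 0.106 to 0.360 CPM, and it covers counting error only, because reads copied by amplification carry no molecular identifier. *Guca2a* and *Guca2b*, which check the sort, were higher in positive cells of all 4 regions, by 2.65 to 5.75 on the log2 scale. The summed level of markers of cells outside the epithelium was in any library at most 20.7 CPM for 8 fibroblast genes, 1.32 for 5 smooth muscle genes, 8.27 for 4 endothelial genes, 9.25 for 6 leukocyte genes and 0.631 for 4 genes of enteric glia. In the ileum 3 of 6 fibroblast genes tested were lower in positive cells (*Dcn*, *Col1a1* and *Col3a1*), and the list summed to 2.37 to 7.45 CPM in positive and 4.51 to 20.7 in negative cells there. The smooth muscle gene *Tagln* was higher in positive cells of the ileum (log2 difference 5.02) and the endothelial gene *Clec14a* in the duodenum (6.79). Both sizes rest on low levels. In those positive cells the smooth muscle list summed to 0.721 to 1.32 CPM. The endothelial list summed to 0.225, 0.246 and 2.25 CPM, with 3 of its 4 genes at 0 throughout. The leukocyte genes *Cd68* in the ileum (-6.52) and *Ms4a1* in the jejunum (-5.64) were lower. All 10 members exceeded 3 counts in at least 2 of 3 negative libraries of every region.

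Promoter windows were read from RefSeq for the members that have one, 250 bases before to 50 bases after a start site in GRCm38.p6. There were 10 windows for 6 members: *Olfm4*, *Ascl2*, *Axin2*, *Rnf43*, *Tnfrsf19* and *Rgmb*. Both strands were searched for ATCAAAG and AACAAAG, forms of the sequence that TCF factors bind, which cannot match at the same position. ATCAAAG was found in 3.73% of 32851 windows of this length, AACAAAG in 5.85% and either in 9.33%. Among the member windows 1 of 10 held a match, in *Tnfrsf19*. The windows of *Olfm4*, *Ascl2* and *Axin2* are printed as 3 patterns among the 6 members with a window: the gene with the highest level in the small intestine, the gene without a read in positive cells of the jejunum, and the gene that passed the test in neither jejunum nor ileum. The capitals mark CG dinucleotides, of which the *Olfm4* window (chr14:80000052-80000351, forward strand) held 5, the *Ascl2* window (chr7:142969215-142969514, reverse strand) 23 and the *Axin2* window (chr11:108920099-108920398, forward strand) 31, against a median of 7 over all windows. In the window of *Tnfrsf19* (chr14:61037938-61038237, reverse strand) the capitals mark the match to ATCAAAG, which begins 202 bases before the start site.
Olfm4: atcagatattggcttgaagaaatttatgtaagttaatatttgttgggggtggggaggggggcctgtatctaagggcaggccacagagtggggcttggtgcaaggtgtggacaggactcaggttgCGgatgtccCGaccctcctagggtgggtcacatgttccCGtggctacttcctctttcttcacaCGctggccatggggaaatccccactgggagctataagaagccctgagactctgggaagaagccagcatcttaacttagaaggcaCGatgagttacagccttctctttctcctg
Ascl2: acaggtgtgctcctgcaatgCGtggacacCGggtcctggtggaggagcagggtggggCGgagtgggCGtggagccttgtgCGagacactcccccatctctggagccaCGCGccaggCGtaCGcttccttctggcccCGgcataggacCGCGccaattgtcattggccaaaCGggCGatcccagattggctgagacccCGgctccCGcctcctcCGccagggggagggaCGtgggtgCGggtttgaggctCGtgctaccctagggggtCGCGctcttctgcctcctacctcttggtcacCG
Axin2: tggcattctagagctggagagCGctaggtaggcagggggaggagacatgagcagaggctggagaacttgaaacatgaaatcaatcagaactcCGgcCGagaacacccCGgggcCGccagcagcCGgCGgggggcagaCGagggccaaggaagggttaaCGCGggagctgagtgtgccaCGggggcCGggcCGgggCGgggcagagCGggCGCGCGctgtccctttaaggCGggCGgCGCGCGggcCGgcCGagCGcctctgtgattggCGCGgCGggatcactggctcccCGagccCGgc
Tnfrsf19: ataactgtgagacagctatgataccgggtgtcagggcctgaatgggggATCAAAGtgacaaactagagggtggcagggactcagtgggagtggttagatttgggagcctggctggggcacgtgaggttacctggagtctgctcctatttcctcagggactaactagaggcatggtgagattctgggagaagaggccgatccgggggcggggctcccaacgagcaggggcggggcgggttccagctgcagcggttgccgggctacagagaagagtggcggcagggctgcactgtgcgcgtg

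In jejunum and ileum, positive cells held less RNA of most of the stem cell and Wnt target genes than negative cells. In the jejunum 9 of the 10 genes were lower, in ileum 9, in colon 4 and in duodenum 1 (edgeR's quasi-likelihood test, Benjamini-Hochberg adjusted p under 0.05 over all genes tested). None was higher in any region, by edgeR, by DESeq2 or at an unadjusted p under 0.05 in edgeR. *Smoc2* was lower in all 4 regions, *Lgr5* and *Rnf43* in 3, and *Axin2* only in the colon among the 4 regions tested. In bulk RNA of sorted cells, fewer cells of a type and less RNA per cell cannot be told apart.

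Markers of other epithelial cells moved with the sort as well. Of 8 enteroendocrine genes 7 were lower in positive cells of the duodenum, 8 in jejunum, 6 in ileum and 5 in colon, with median log2 differences of -4.79, -4.18, -3.16 and -1.65. Of 5 tuft cell genes tested 3 were lower in duodenum, 5 in jejunum, 5 in ileum and 1 in colon, with medians of -2.72, -4.53, -3.19 and -1.70. In the other direction, all 7 goblet cell genes were higher in each of the 4 regions, all 7 Paneth cell genes in each region of the small intestine, and 3 of 8 enterocyte genes in duodenum, 7 in jejunum, 8 in ileum and 5 in colon. In the duodenum 1 enterocyte gene, *Slc26a3*, was lower (log2 difference -1.23). Beside these counts, 8.08%, 25.6%, 20.6% and 3.80% of all genes were lower in duodenum, jejunum, ileum and colon. The shares higher were 8.88%, 18.3%, 17.9% and 9.31%. The part of these markers in the differences of the 10 genes was not tested.

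Among all genes tested, 25.6% were lower in positive cells of the jejunum, 20.6% in ileum, 3.80% in colon and 8.08% in duodenum. The shares that were higher were 18.3%, 17.9%, 9.31% and 8.88%. The counts behind these shares depended on the setting in duodenum and colon. In the duodenum 1216 genes were lower and 1336 higher, against 350 and 2267 with library size alone. Without duodenum positive replicate 1 they were 529 and 888. In the colon 572 were lower, against 1102 with DESeq2 and 180 without colon positive replicate 2. In jejunum and ileum each count stayed within 1.5 times its main value. The median log2 difference of the 10 genes was -2.90 in jejunum, -2.63 in ileum, -1.21 in colon and -0.90 in duodenum, beside -0.28, -0.27, 0 and -0.16 for all genes. Every positive library lay below every negative library for 8 members in jejunum, 9 in ileum, 7 in colon and 3 in duodenum, where 29.9%, 30.1%, 11.9% and 21.0% of all genes did so. The count of members thus stood well above the share of all genes in jejunum and ileum, and also, on smaller differences, in the colon. The members were chosen with earlier results of these data known, so these counts describe them and are no independent test. The paper had reported *Lgr5* among markers relatively depleted in positive cells of the same data. In the duodenum 1 of 10 called and 3 of 10 separated were near the shares of all genes.

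Scaling by library size alone moved the median of all genes up by 0.43 in duodenum and 0.30 in jejunum, and it left the median of the members at -0.45 and -2.49. At an unadjusted p under 0.05 the members numbered 4 in duodenum, 9 in jejunum, 9 in ileum and 7 in colon.

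**Figure D1:**
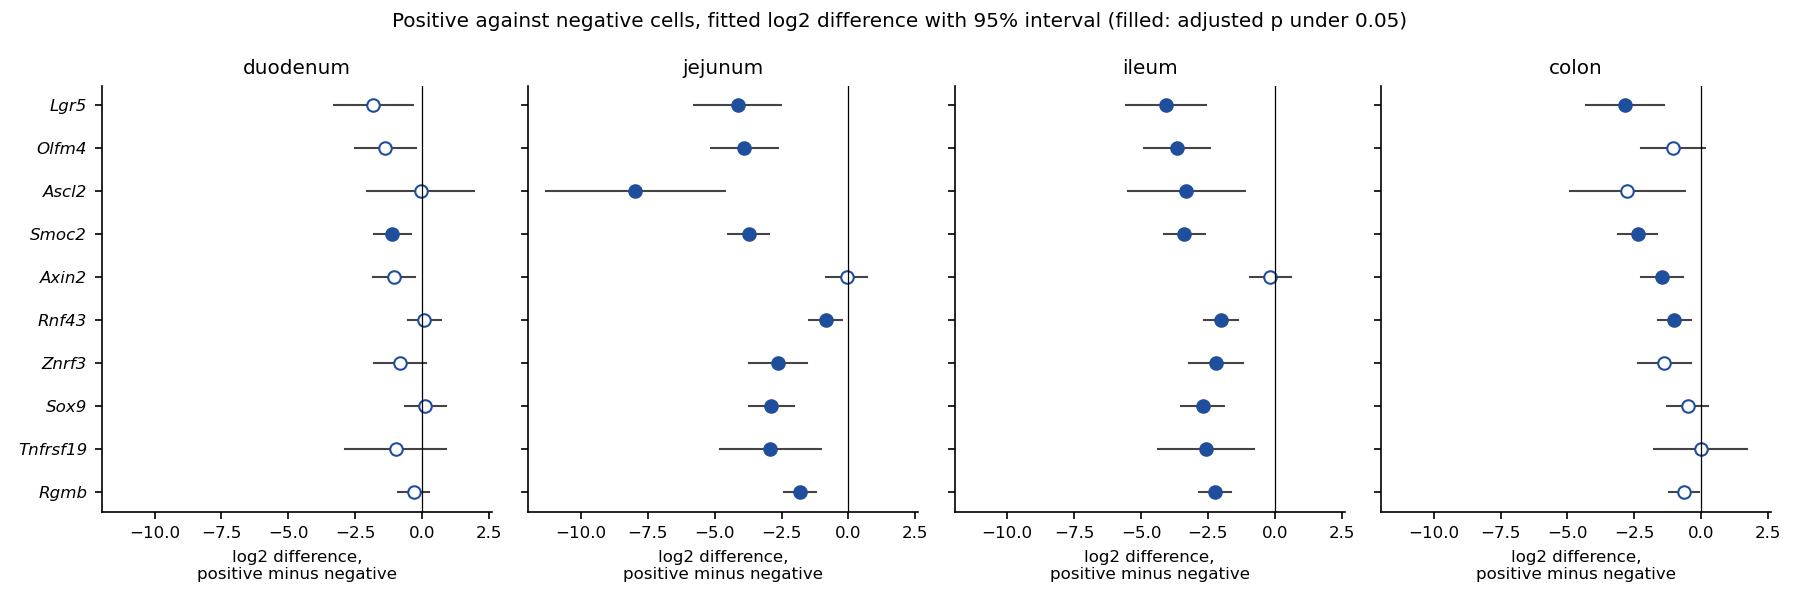
Fitted log2 difference of positive minus negative cells (x axis) for the 10 genes (y axis) in each region, with 95% intervals, filled where the adjusted p was under 0.05. In jejunum and ileum 9 of the 10 points are filled and left of 0, in the duodenum only that of *Smoc2*.

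*Lgr5*, on chromosome 10 from 115450311 to 115587780, encodes the R-spondin receptor that defines crypt base columnar stem cells. In negative cells it was at 9.89, 4.34 and 2.88 CPM in duodenum, 6.83, 16.6 and 5.202 in jejunum, 41.8, 17.2 and 19.2 in ileum and 24.6, 10.0 and 6.89 in colon. In positive cells it was at 1.84, 0.0821 and 3.04 CPM in duodenum, 0.320, 0.112 and 1.24 in jejunum, 2.80, 0.961 and 0.809 in ileum and 3.25, 0.708 and 1.81 in colon. The groups overlapped only in the duodenum, where 1 positive library exceeded the lowest negative one. Duodenum positive replicate 2 held 1 count and jejunum positive replicate 2 held 2, under the floor of 3, so these levels are upper limits. *Lgr5* was 17.7-fold lower in positive cells of the jejunum (log2 difference -4.14, standard error 0.82, adjusted p = 0.000157, edgeR) and 16.8-fold lower in the ileum (-4.07, standard error 0.77, adjusted p = 0.000102, edgeR). The jejunal difference was -5.45 without jejunum positive replicate 3, -3.52 without jejunum positive replicate 2 and -3.48 without jejunum negative replicate 2, and the ileal one -4.87 without ileum positive replicate 1. Within the colon it was 7.17-fold lower (-2.84, standard error 0.74, adjusted p = 0.00940, edgeR), a call lost without colon positive replicate 2 (adjusted p = 0.0714) or colon negative replicate 1 (-2.14, adjusted p = 0.0632, both edgeR). The duodenal difference of -1.83 had an adjusted p of 0.0920 (edgeR), and it passed without duodenum positive replicate 3 (-2.63, adjusted p = 0.0488) and without a filter on low counts (-1.76, adjusted p = 0.00441, edgeR). Without duodenum negative replicate 1 it was -1.18, with the highest adjusted p of the alternatives run (0.358, edgeR).

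*Olfm4* encodes a secreted glycoprotein of stem cells in the small intestine and lies on chromosome 14 from 79984081 to 80023139. Per kilobase of exon, its level in negative cells of the small intestine was far above that of the other members. The same held in positive cells of the duodenum. *Axin2* exceeded it in jejunum positive replicate 2, at 13.5 CPM per kb against 8.68. In ileum positive replicate 2 *Olfm4* was the higher, at 29.8 against 17.4. *Olfm4* was at 1745, 1540 and 2184 CPM in negative cells of the duodenum, 1601, 1319 and 2327 in jejunum and 1679, 821 and 3506 in ileum. Positive cells held 424, 765 and 917 CPM in duodenum, 48.6, 25.7 and 281 in jejunum and 179, 88.1 and 212 in ileum. All positive libraries lay below all negative ones in each region, and jejunum positive replicate 3 stood far above the other positive libraries of the jejunum. *Olfm4* was 14.8-fold lower in jejunum (log2 difference -3.88, standard error 0.64, adjusted p = 1.55e-05, edgeR) and 12.5-fold lower in ileum (-3.65, standard error 0.63, adjusted p = 3.82e-05, edgeR). The jejunal difference was -5.56 without jejunum positive replicate 3, and the ileal one -2.97 without ileum negative replicate 3. Within the duodenum the difference was -1.38 with an adjusted p of 0.0996 (edgeR), which became 0.0280 without jejunum positive replicate 3, 0.00142 without a filter on low counts and 0.00788 when the duodenal libraries were fitted alone, and at most 0.290 under the other alternatives. In the colon it was low in both sorts, at 3.32, 3.54 and 5.87 CPM in positive and 6.11, 5.93 and 14.2 CPM in negative cells. The colonic difference of -1.04 was not called (adjusted p = 0.289, edgeR), and of the alternatives run it passed in 1, without a filter on low counts (-1.06, adjusted p = 0.0321, edgeR). It was -0.49 without colon negative replicate 3, with the highest adjusted p of the alternatives run (0.720, edgeR).

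*Smoc2*, on chromosome 17 from 14279506 to 14404790, encodes a secreted matrix protein found in crypt base stem cells. Negative cells held 41.2, 36.5 and 30.6 CPM in duodenum, 38.0, 28.6 and 32.6 in jejunum, 43.8, 35.5 and 43.5 in ileum and 19.2, 19.3 and 24.8 in colon. Positive cells held 10.8, 17.4 and 21.7 CPM in duodenum, 1.73, 0.948 and 4.89 in jejunum, 4.52, 3.67 and 3.604 in ileum and 3.25, 3.47 and 5.49 in colon. No positive library reached a negative library of its region. *Smoc2* was 13.3-fold lower in positive cells of the jejunum (adjusted p = 5.59e-08), 10.4-fold in ileum (1.21e-07) and 5.17-fold in colon (6.75e-05, all edgeR). The jejunal log2 difference of -3.73 was -4.63 without jejunum positive replicate 3. In the duodenum it was 2.17-fold lower (log2 difference -1.12, standard error 0.35, adjusted p = 0.0271, edgeR). This call did not hold without duodenum positive replicates 1 or 2, duodenum negative replicates 1 or 2, jejunum negative replicate 1, colon positive replicate 2 or colon negative replicate 2, each left out alone (log2 difference -1.16 to -0.89, every adjusted p above 0.05 in edgeR), nor with scaling by library size alone (-0.66, adjusted p = 0.268).

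*Ascl2* encodes a transcription factor that sets the stem cell state downstream of Wnt, and lies on chromosome 7 from 142966829 to 142969264. It was counted by few reads, 0 to 82 in a library. In the jejunum no read was counted in any of the 3 positive libraries, whereas negative cells held 2.20, 1.61 and 2.36 CPM. Against the floor of 3 counts per library this was at least 10.7-fold lower in positive cells, with an adjusted p of 0.000410 (edgeR). In the ileum positive cells held 0.538, 0.120 and 0.147 CPM and negative cells 3.38, 2.86 and 2.11, a 9.88-fold difference (log2 difference -3.30, standard error 1.11, adjusted p = 0.0198, edgeR). Ileum positive replicates 2 and 3 held 2 counts each, under the floor of 3, so this size rests in part on upper limits. The ileal call was lost without ileum positive replicate 2 (adjusted p = 0.0791) or 3 (adjusted p = 0.0755, edgeR), and the difference was -4.31 without ileum positive replicate 1. In the duodenum the sorts overlapped, at 0, 1.48 and 2.03 CPM in positive and 1.82, 1.30 and 0.505 CPM in negative cells. The colon gave 0.155, 0.496 and 0.387 CPM in positive cells and 0, 3.00 and 4.17 CPM in negative cells, with an adjusted p of 0.0979 (edgeR), which was 0.0250 without the colon negative library at 0 and 0.0323 by DESeq2. Without colon negative replicate 3 the colonic difference went from -2.77 to -2.12, with the highest adjusted p of the alternatives run (0.291, edgeR).

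*Sox9*, a transcription factor of the crypt base that Paneth cells also express, lies on chromosome 11 from 112782224 to 112787760. It behaved differently by region. In the jejunum positive cells held 2.17, 1.78 and 5.03 CPM against 31.5, 23.2 and 11.4 in negative cells, and in ileum 9.96, 6.07 and 3.82 CPM against 59.2, 39.0 and 31.2. These were differences of 7.40-fold (log2 difference -2.89, standard error 0.43, adjusted p = 4.17e-06, edgeR) and 6.48-fold (-2.70, standard error 0.42, adjusted p = 8.43e-06, edgeR). Without jejunum positive replicate 3 the jejunal difference was -3.47. Within the duodenum the sorts overlapped, at 20.7, 26.8 and 32.3 CPM in positive and 33.4, 19.3 and 21.1 CPM in negative cells, with a log2 difference of 0.12 and a 95% interval of -0.65 to 0.88. In the colon they overlapped as well, at 38.4, 36.7 and 24.1 CPM in positive and 40.6, 66.9 and 32.9 CPM in negative cells, with an interval of -1.26 to 0.26.

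*Axin2*, on chromosome 11 from 108920349 to 108950783, encodes a scaffold of the destruction complex and is a widely used readout of Wnt signalling. It was the 1 gene of the 10 that passed the test in neither jejunum nor ileum. Positive cells of the jejunum held 19.4, 74.1 and 20.5 CPM against 37.9, 54.9 and 26.7 in negative cells, and those of the ileum 57.5, 95.8 and 52.1 CPM against 105.5, 78.0 and 46.7. The sorts overlapped in both regions, with log2 differences of -0.07 (95% interval -0.84 to 0.70) and -0.16 (-0.93 to 0.60). The jejunal difference was -0.91 without jejunum positive replicate 2 and 0.25 without jejunum positive replicate 1. Its lowest adjusted p with 1 library left out was 0.0520 (edgeR). In the colon all positive libraries, at 14.4, 15.7 and 12.1 CPM, lay below the negative ones, at 42.3, 39.6 and 34.6 CPM. This was a 2.75-fold decrease (log2 difference -1.46, standard error 0.41, adjusted p = 0.0147, edgeR), which missed the threshold without colon positive replicate 1 (adjusted p = 0.0514) or 3 (adjusted p = 0.0587, edgeR). The duodenum showed the same separation, 9.93, 15.9 and 15.6 CPM against 38.9, 26.1 and 20.3, and a difference of -1.04 with an adjusted p of 0.0743 (edgeR), which was 0.0192 when the duodenal libraries were fitted alone, 0.0395 without a filter on low counts and 0.0357 without jejunum positive replicate 2. Under the other alternatives it was at most 0.344, with library size alone (-0.59), and 0.273 without duodenum negative replicate 1 (-0.75, edgeR). Of the 5506 exon bases of *Axin2*, 209 are shared with the antisense gene *Gm11670*, which had 18 counts in all libraries together.

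*Rnf43* and *Znrf3* encode the paired membrane ubiquitin ligases that remove Frizzled receptors, and both lie on chromosome 11, *Rnf43* from 87662722 to 87735539 and *Znrf3* from 5276324 to 5444847. *Rnf43* in the ileum was at 17.2, 10.996 and 8.83 CPM in positive and 66.4, 47.9 and 36.5 CPM in negative cells, 4.06-fold lower (log2 difference -2.02, standard error 0.32, adjusted p = 1.34e-05, edgeR). Within the colon it was at 16.8, 18.4 and 12.7 CPM against 35.6, 36.7 and 24.2 CPM, 2.01-fold lower (adjusted p = 0.0317, edgeR), and the call was lost without any 1 of the colon positive replicates or of colon negative replicates 1 and 2 (adjusted p 0.0531 to 0.129). In the jejunum 1 positive library overlapped the negative ones, at 19.0, 16.4 and 11.6 CPM against 37.7, 28.6 and 18.1 CPM. The jejunal difference of -0.84 (adjusted p = 0.0308, edgeR) did not hold with DESeq2 (adjusted p = 0.0594), RLE factors (0.0629), library size alone (0.321), no filter (0.116), a filter of 10 counts in every library of a group (0.0515), without mitochondrial genes (0.0756) or with the jejunal libraries fitted alone (0.0602). It was also lost without jejunum positive replicates 2 or 3 or jejunum negative replicates 1 or 2 (adjusted p 0.0609 to 0.243, edgeR). In the duodenum *Rnf43* overlapped, at 24.5, 17.7 and 24.5 CPM in positive and 27.5, 18.6 and 16.6 CPM in negative cells.

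*Znrf3* was lower than *Rnf43* in CPM in every group. Its positive libraries held 0.320 to 1.45 CPM in jejunum against 3.87 to 8.36 CPM in negative cells, and 0.883 to 4.27 CPM in ileum against 6.37 to 13.4 CPM. These were 6.19-fold (log2 difference -2.63, standard error 0.54, adjusted p = 0.000249, edgeR) and 4.62-fold (-2.21, standard error 0.51, adjusted p = 0.00105, edgeR) decreases, and the ileal one was -3.01 without ileum positive replicate 2. The colon, at 3.42 to 4.53 CPM against 7.91 to 11.1 CPM, showed no overlap but an adjusted p of 0.0693 (edgeR), which was 0.0303 by DESeq2, 0.0171 with the colonic libraries fitted alone and at most 0.195 under the other alternatives. In the duodenum *Znrf3* overlapped, at 2.46 to 5.74 CPM against 4.90 to 11.3 CPM.

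*Tnfrsf19*, also called *Troy*, encodes a receptor that marks crypt base stem cells and lies on chromosome 14 from 60963875 to 61046490. It was the least abundant member per exon length in 5 of the 8 groups. In positive cells of the jejunum it was at 0 to 0.895 CPM against 2.12 to 3.41 CPM in negative cells, and in the ileum at 0.646 to 0.883 CPM against 3.35 to 5.86 CPM. It was 7.55-fold lower in jejunum (log2 difference -2.92, standard error 0.96, adjusted p = 0.0147, edgeR) and 5.93-fold lower in ileum (-2.57, standard error 0.92, adjusted p = 0.0274, edgeR). Jejunum positive replicate 3 had 0 counts, so its level is only an upper limit. The jejunal difference was -4.50 without jejunum positive replicate 1, and the call was lost without jejunum positive replicate 2 (adjusted p = 0.0681) or 3 (0.0581), and the ileal call without any 1 of the ileum positive replicates or of ileum negative replicates 1 and 3 (0.0567 to 0.0772, edgeR). Duodenum and colon overlapped.

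*Rgmb*, on chromosome 17 from 15803188 to 15831039, encodes a membrane-anchored co-receptor for BMP ligands. It was at 3.71, 3.96 and 3.94 CPM in positive cells of the jejunum against 13.3, 16.1 and 11.01 CPM in negative cells, and at 5.76, 4.93 and 3.53 CPM in the ileum against 26.5, 22.2 and 18.6 CPM. It was 3.47-fold lower in jejunum (log2 difference -1.80, standard error 0.30, adjusted p = 2.16e-05, edgeR) and 4.71-fold lower in ileum (-2.24, standard error 0.30, adjusted p = 1.52e-06, edgeR). Within the colon the libraries did not overlap, at 10.4 to 12.2 CPM against 14.8 to 21.7 CPM, and the difference of -0.64 had an adjusted p of 0.153 (edgeR). In the duodenum they overlapped, with a difference of -0.31 and a 95% interval of -0.89 to 0.27.

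**Figure D2:**
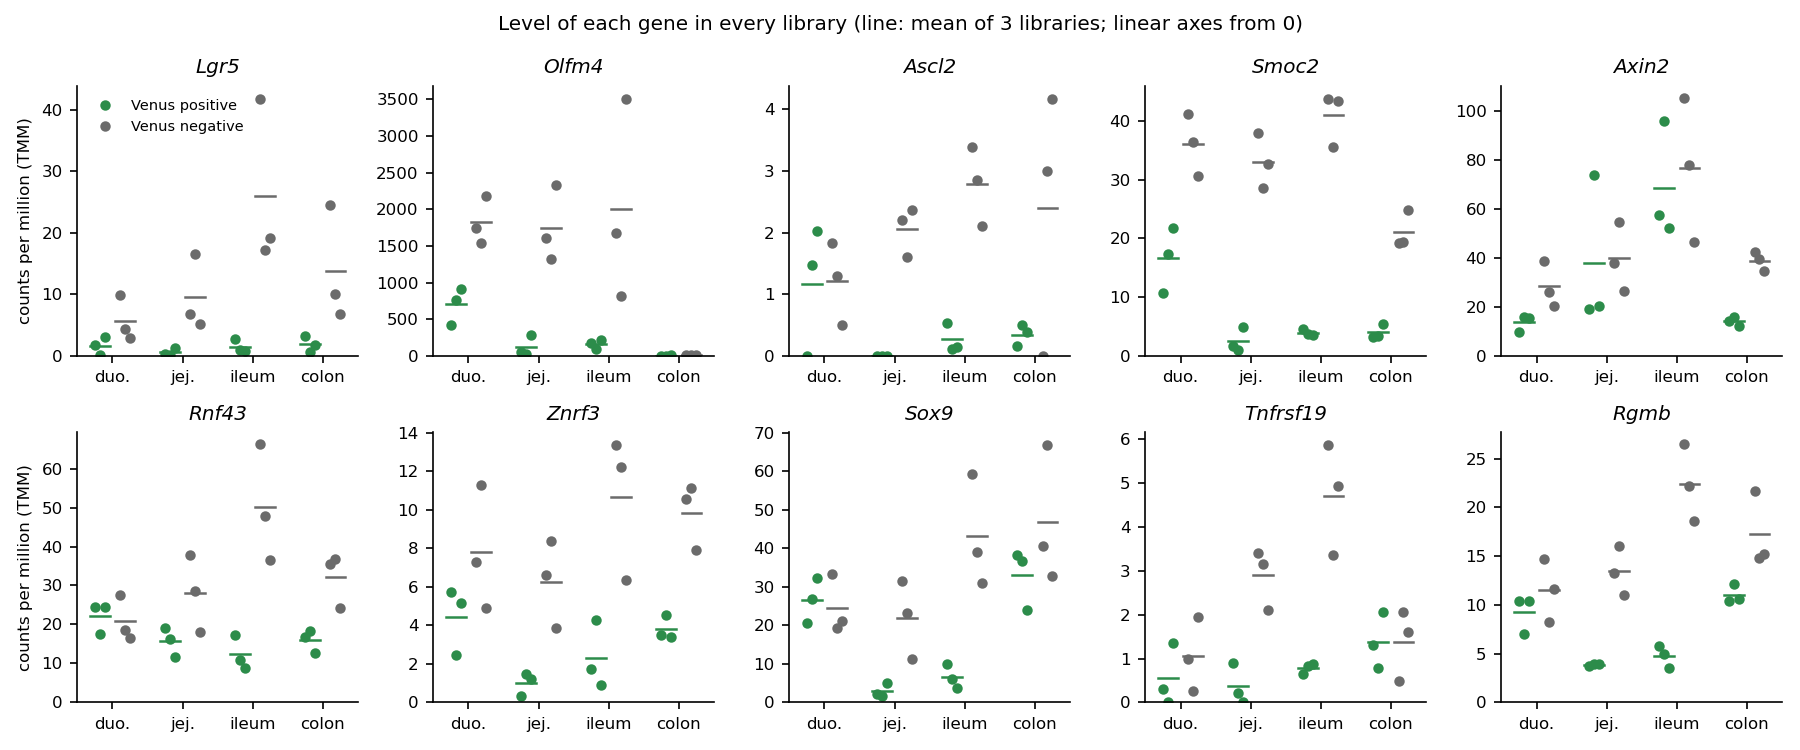
Level of each of the 10 genes (y axis, CPM, linear from 0) in every library by region (x axis), with positive cells in green, negative cells in grey and the mean of 3 libraries as a line. *Smoc2* separates the sorts in all 4 regions, *Axin2* overlaps in jejunum and ileum, and *Sox9* overlaps in duodenum and colon.

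The difference between positive and negative cells depended on the region for 6 of the 10 genes, *Olfm4*, *Ascl2*, *Smoc2*, *Rnf43*, *Sox9* and *Rgmb*, by the joint interaction test over the 4 regions, which called 17.5% of all genes. For these 6 the depletion in positive cells was weaker in the duodenum than in jejunum and ileum, by the contrast of the duodenal difference with the mean of the other two, in which 9.60% of all genes were called in this direction. The interaction was 2.91 on the log2 scale for *Sox9* (standard error 0.49, adjusted p = 0.000145, edgeR), 2.44 for *Smoc2* (0.44, adjusted p = 0.000271, edgeR) and 2.39 for *Olfm4* (0.71, adjusted p = 0.0191, edgeR). It was 1.71 for *Rgmb* (0.36, adjusted p = 0.00143, edgeR) and 1.52 for *Rnf43* (0.39, adjusted p = 0.00652, edgeR). That of *Ascl2* (adjusted p = 0.00981, edgeR) has no interpretable size, since its jejunal positive libraries were at 0. The call of *Olfm4* was lost without duodenum negative replicate 2 (2.27, adjusted p = 0.0603, edgeR), and its interaction was 3.22 without jejunum positive replicate 3. *Lgr5*, at 2.28 with an adjusted p of 0.0906, passed without duodenum positive replicate 2, duodenum negative replicate 1, jejunum positive replicate 3 or ileum positive replicate 1 (2.67 to 2.93, adjusted p 0.0232 to 0.0485, edgeR), and also with library size alone (2.62, adjusted p = 0.0462) and without a filter on low counts (2.25, adjusted p = 0.00245, edgeR). Without duodenum positive replicate 3 it was 1.48, with the highest adjusted p of the alternatives run (0.373, edgeR). *Znrf3*, at 1.60 with an adjusted p of 0.0730, passed without ileum positive replicate 2 (adjusted p = 0.0212) and with library size alone (2.01, adjusted p = 0.0215, edgeR), and its adjusted p was at most 0.200 under the other alternatives.

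Other cell type markers moved along the gut together with these interactions. In positive cells the 7 Paneth cell genes summed to 22636 to 54591 CPM in duodenum, 1606 to 16475 in jejunum and 4375 to 9993 in ileum. The 7 goblet cell genes summed to 20583 to 27096 CPM in duodenum, 971 to 3006 in jejunum and 2763 to 5893 in ileum. The 8 enterocyte genes, by contrast, summed to 1353 to 2448 CPM in duodenum, 14594 to 15452 in jejunum and 5841 to 10404 in ileum. The 10 genes of cycling cells summed to 89.2 to 155 CPM in positive cells of the duodenum, 15.8 to 37.2 in jejunum and 28.0 to 48.2 in ileum, against 267 to 375 CPM in negative cells of the small intestine. Their part in the interactions was not tested.

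In the contrast of the colonic difference with the mean of the small intestine, no member was called at an adjusted p of 0.05 by edgeR, 4 had an unadjusted p under 0.05, and 4.13% of all genes were called in either direction. DESeq2 called none of them either. Without jejunum positive replicate 3 the interaction passed for *Olfm4* (adjusted p = 0.0045) and *Sox9* (adjusted p = 0.0256), and without ileum positive replicate 1 for *Sox9* (adjusted p = 0.0460, edgeR). Without a filter on low counts it passed for *Olfm4* (1.81, adjusted p = 0.000423) and *Sox9* (1.23, adjusted p = 0.0497, edgeR). Under the other alternatives their adjusted p was at most 0.310 and 0.242.

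**Figure D3:**
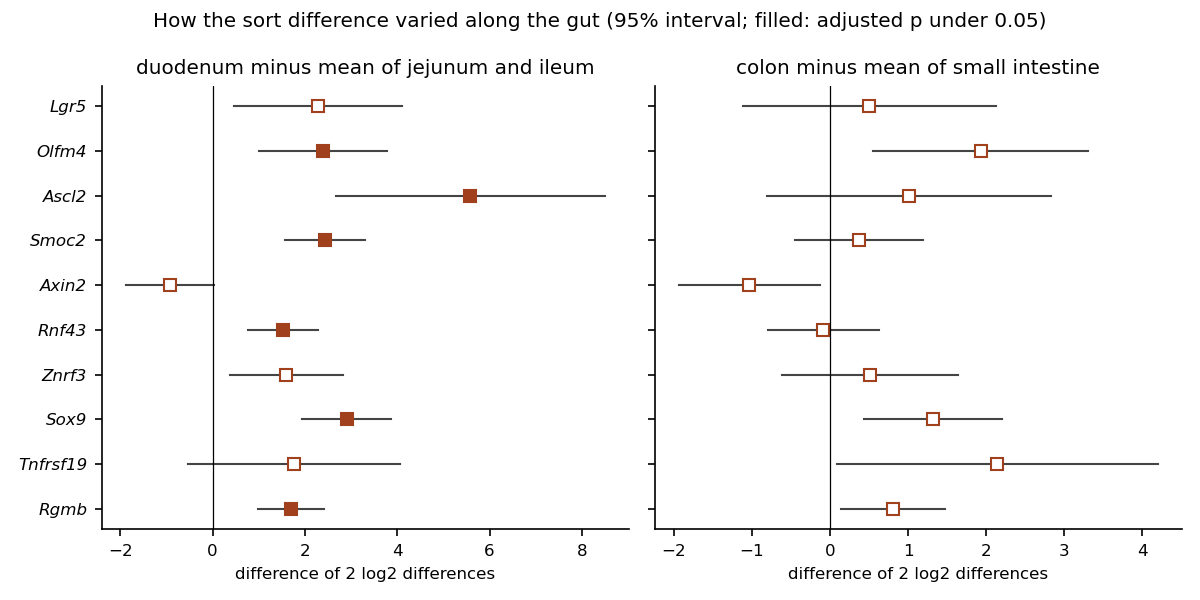
Difference between regions in the log2 difference of positive minus negative cells (x axis) for the 10 genes (y axis), as duodenum minus the mean of jejunum and ileum (left) and colon minus the mean of the small intestine (right), with 95% intervals, filled where the adjusted p was under 0.05. On the left the 6 filled points lie right of 0, and on the right no point is filled.

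Among negative cells, *Olfm4* set the colon apart from the small intestine. The joint test over the 4 regions called 3 of 10, *Olfm4* (adjusted p = 6.12e-08), *Rnf43* (0.0268) and *Axin2* (0.0498, all edgeR), where 12.3% of all genes were called. The count of members fell to 1 without duodenum negative replicate 2. It ran from 1 to 3 with 1 library left out and from 1 to 7 under the other alternatives. *Olfm4* was 211-fold lower in negative cells of the colon than in the mean of the small intestine (log2 difference -7.72, standard error 0.75, adjusted p = 4.74e-09, edgeR), a contrast in which 6.53% of all genes were lower. No other member passed that contrast. *Smoc2*, at -0.79, had an adjusted p of 0.0832 (edgeR), and passed without jejunum positive replicate 3 (0.0240) and with the i5 index as a covariate (0.0402), and *Sox9*, at 0.71 and an adjusted p of 0.137, passed without jejunum negative replicate 1 (0.0414) and without a filter on low counts (0.0256, edgeR). Under the other alternatives their adjusted p was at most 0.342 and 0.439. Between the duodenum and the mean of jejunum and ileum no member was called in negative cells by edgeR, 5 had an unadjusted p under 0.05, DESeq2 called none, and 2.34% of all genes were called in either direction. Other settings of edgeR did call members lower in the duodenum: with library size alone *Rnf43* (-1.15, adjusted p = 0.0389) and *Axin2* (-1.28, adjusted p = 0.0478), with the i5 index as a covariate *Rnf43* (-0.90, adjusted p = 0.0313) and without a filter on low counts *Lgr5* (-1.46, adjusted p = 0.0142, edgeR). Under the other alternatives the adjusted p was at most 0.563 for *Rnf43*, 0.657 for *Axin2* and 0.741 for *Lgr5*.

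Among positive cells the joint test over the 4 regions called 7 of 10 members, all but *Lgr5*, *Rnf43* and *Tnfrsf19*, where 43.3% of all genes were called. Positive cells of the duodenum held more than those of jejunum and ileum for 7 members, where 20.9% of all genes were higher: *Sox9* by 2.58 on the log2 scale, *Smoc2* by 2.41, *Olfm4* by 2.35, *Znrf3* by 1.54, *Rgmb* by 1.11, *Rnf43* by 0.67 and *Ascl2*, whose size rests on libraries at 0. The highest adjusted p among the first 5 was 0.00665 (edgeR), and the difference of *Olfm4* was 3.18 without jejunum positive replicate 3. That of *Rnf43*, 0.0494, was lost with DESeq2 (0.0585), RLE factors (0.0564), library size alone (0.0806), no filter (0.100196) or no mitochondrial genes (0.0657), and without any 1 of 14 libraries, the 6 duodenal ones among them (0.0502 to 0.158, edgeR). *Axin2* went the other way and was 3.68-fold lower in the duodenum (log2 difference -1.88, standard error 0.38, adjusted p = 0.000260, edgeR), where 15.4% of all genes were lower. Against the mean of the small intestine, positive cells of the colon held more *Sox9* (2.03, standard error 0.30, adjusted p = 4.10e-06) and *Rgmb* (0.99, standard error 0.23, adjusted p = 0.00156, edgeR), where 15.9% of all genes were higher. They held less *Olfm4* (-5.79, standard error 0.68, adjusted p = 1.05e-07) and *Axin2* (-1.23, standard error 0.35, adjusted p = 0.00927, edgeR), where 10.3% were lower. The last call missed the threshold without colon positive replicate 3 (-1.13, adjusted p = 0.0609), and that of *Rgmb* with library size alone (0.60, adjusted p = 0.123). *Znrf3* was called higher there without ileum positive replicate 2 (1.07, adjusted p = 0.0396) and *Tnfrsf19* without duodenum positive replicate 3 (adjusted p = 0.0424, edgeR), with adjusted p of at most 0.471 and 0.526 under the other alternatives.

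Levels of different genes were compared per kilobase of exon. In the small intestine *Olfm4* ranked first in all 6 groups, at 591 to 676 CPM per kb on average in negative and 40.0 to 237 in positive cells, and its range overlapped that of the next gene, *Axin2*, only in positive cells of the jejunum. In the colon *Olfm4* ranked 5th in both sorts, at 1.43 ± 0.478 (SD, n = 3) CPM per kb in positive and 2.95 ± 1.59 in negative cells, and *Sox9* ranked first, at 11.3 ± 4.31 in negative cells. *Axin2* came second in both sorts of the jejunum, ileum and colon, and in positive cells of the ileum, at 12.4 ± 4.32, its range lay above that of the next gene. *Lgr5* was among the 4 lowest in every group, at 0.0543 to 0.187 CPM per kb in positive and 0.556 to 2.54 in negative cells, and its range overlapped those of its neighbours in all negative groups. Neighbouring ranks in the lower part of the order, from *Rgmb* down, overlapped in most groups.

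**Figure D4:**
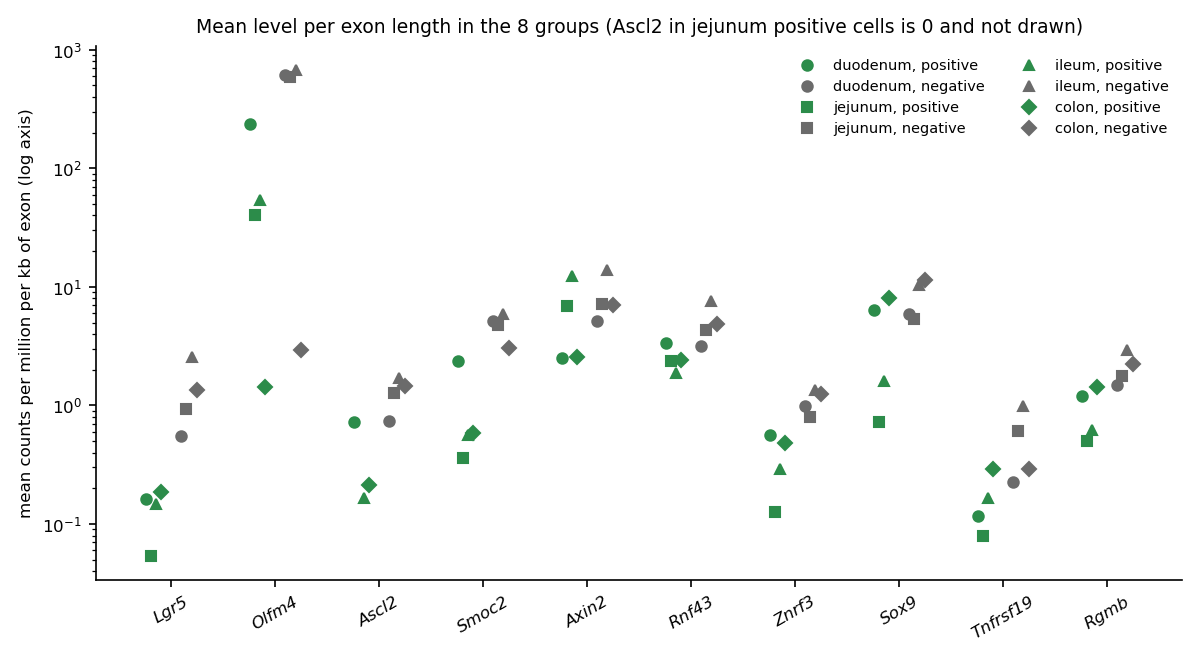
Mean level per kilobase of exon (y axis, log scale) of the 10 genes (x axis) in the 8 groups, with positive cells in green, negative cells in grey and regions by symbol. *Olfm4* spans from 1.43 to 676 CPM per kb, and green lies below grey for *Smoc2* in every region.

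Summed over the 10 genes, negative cells held 1079.6 to 3715 CPM in libraries of the small intestine, of which *Olfm4* made up 76.1% to 95.4%. Positive cells held 508 to 1033 CPM in duodenum, 96.2 to 329.6 in jejunum and 216 to 287 in ileum. Colonic libraries held 78.6 to 96.6 CPM in positive and 167 to 209 CPM in negative cells, with an *Olfm4* share of 2.83% to 8.53%. Over the 24 libraries, which share their region and sort, Pearson's r between the log2 levels of 2 members ranged from -0.104 (*Axin2* and *Sox9*) to 0.887 (*Sox9* and *Rgmb*), with a median of 0.577 over the 45 pairs. Within the 12 negative libraries the median was 0.374, and within the 12 positive libraries 0.219. The genes whose pattern over the 24 libraries was most like that of *Lgr5* were *Lig1*, a DNA ligase of replication (r = 0.896), *Lysmd2* (0.894), *Syncrip*, an RNA-binding protein (0.890), *Cbx5*, a heterochromatin protein (0.890), and *Rad54b*, a helicase of recombination (0.889). For *Smoc2*, chosen after its values were seen, they began with the cell division gene *Cdca3* (0.979) and *Cdca7* (0.975), itself a gene of the crypt base list.

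Of 18 other genes known from crypt base stem cells, 14 were lower in positive cells of the jejunum and 13 in ileum. In colon 7 were lower and in duodenum 6. These counts stood beside 25.6%, 20.6%, 3.80% and 8.08% of all genes, with medians of -2.93, -2.67, -0.64 and -0.85. In the opposite direction 2 were higher in duodenum and 1 in colon, near or below the 8.88% and 9.31% of all genes higher there. *Cd44*, an adhesion receptor and Wnt target, fell in jejunum (log2 difference -4.24), ileum (-3.66), duodenum (-2.16) and colon (-1.48), and the water channel *Aqp4* in jejunum (-5.17), ileum (-4.07) and duodenum (-1.23). In the duodenum *Phlda1* was higher by 1.70 and *Fermt1*, a kindlin of cell adhesion, by 1.28. Of 6 genes of reserve stem cells 3 were lower in jejunum, 3 in ileum, 2 in colon and 0 in duodenum, beside 25.6%, 20.6%, 3.80% and 8.08% of all genes, with medians of -2.15, -1.93, -0.94 and -0.39. Among them *Lrig1*, an inhibitor of growth factor receptors, fell in the jejunum (-2.91), ileum (-3.11) and colon (-1.33). Beside the same shares of all genes, each of the 10 genes of cycling cells was lower in jejunum and ileum. Of these 10, 7 were lower in colon and 5 in duodenum. Their medians were -3.77, -3.11, -1.41 and -1.30, each below that of the 10 stem cell and Wnt target genes, and *Mki67*, the proliferation marker, fell in the jejunum (-3.87), ileum (-3.21), duodenum (-1.59) and colon (-1.38).

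Of 19 further Wnt targets and feedback inhibitors 10 were tested, and 5 of these were lower in jejunum, 4 in ileum, 2 in colon and 1 in duodenum, beside 25.6%, 20.6%, 3.80% and 8.08% of all genes, with median log2 differences of -2.68, -2.16, -1.27 and -0.37. *Myc*, the growth regulator, fell in jejunum (log2 difference -3.98), ileum (-4.80) and colon (-1.87), and *Sfrp5*, a secreted Wnt antagonist, in jejunum (-3.07) and ileum (-4.99). It was also called lower in the colon, where it had no count in positive cells and 0 to 10 counts in negative libraries. Of 17 Wnt ligands, R-spondins and genes of their secretion 6 were tested, of which 1 was lower in jejunum and 2 in ileum, beside the same shares of all genes. *Wls*, the carrier that Wnt proteins need to leave the cell, fell in the jejunum (-3.49) and ileum (-1.86). *Porcn*, the enzyme that adds their lipid, was called lower in the ileum, where it had no count in positive cells and 0 to 21 counts in negative libraries. Of 16 Wnt receptors 14 were tested, of which 2 were lower in jejunum and 1 in each other region, and 1 was higher in jejunum and 2 in colon. In duodenum, jejunum and ileum these counts were below the shares of all genes. In colon the 1 lower and 2 higher of 14 stood beside 3.80% and 9.31% of all genes. The Frizzled receptors differed in direction: *Fzd7* fell in ileum (-1.24) and colon (-1.38) and *Fzd1* in duodenum (-1.92), and *Fzd5* was higher by 1.01 in colon. The co-receptor *Lrp5* was higher by 0.99 in jejunum and *Lrp6* by 0.87 in colon, while the R-spondin receptor *Lgr4* (-0.88) and the Wnt receptor *Ror2* (-2.70) fell in jejunum.

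Among the genes listed for the destruction complex and the TCF effectors, those called were higher in positive cells. *Tcf7*, a TCF factor listed with the Wnt targets, was lower in jejunum (log2 difference -2.93) and ileum (-2.60). *Axin2*, a member, was lower in the colon (-1.46). Of 17 genes of the destruction complex and the TCF effectors, 9 rose in positive cells of the jejunum, 7 in ileum, 3 in colon and 1 in duodenum, beside 18.3%, 17.9%, 9.31% and 8.88% of all genes, with medians of 0.92, 0.54, 0.46 and 0.49. The duodenal count was below the share of all genes. *Tcf7l2*, the main TCF factor of the gut, was higher in all 4 regions, by 1.22 in duodenum, 1.30 in jejunum, 1.70 in ileum and 1.41 in colon. *Ctnnb1*, the gene of beta-catenin, was higher by 1.08 in jejunum, 1.24 in ileum and 0.80 in colon, and *Apc*, the scaffold of the complex, by 1.42 in jejunum and by 0.998 in both ileum and colon. Of 16 BMP pathway genes tested 9 were higher in jejunum, 7 in ileum, 3 in colon and 3 in duodenum, beside the same shares of all genes, and 2 were lower, *Bmp7* in jejunum and *Smad4* in colon. Their medians were 0.90, 0.68, 0.43 and 0.28 in the same order of regions. The ligand *Bmp2* was higher in all 4 regions, by 2.78 in duodenum, 2.02 in jejunum, 2.73 in ileum and 1.15 in colon.

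**Figure D5:**
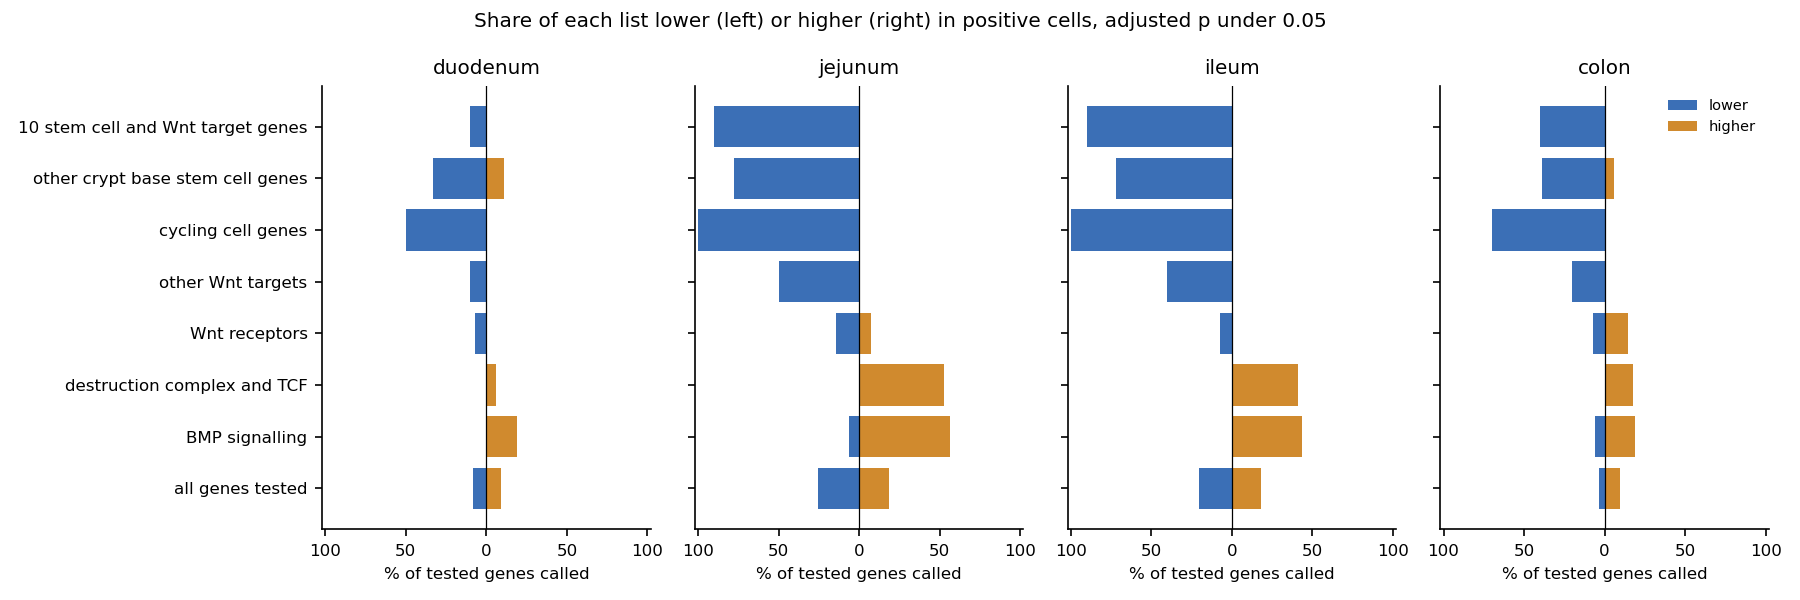
Share of the tested genes of each list (rows) that were lower (blue, to the left) or higher (orange, to the right) in positive cells of each region, at an adjusted p under 0.05 (x axis, percent). Stem cell, cycling and Wnt target genes reach to the left, and destruction complex and BMP genes to the right.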

How the data were processed

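The authors aligned single-end 50-base reads of stranded total RNA libraries to the mouse genome GRCm38 with STAR 2.5.1, per the submitters' processing notes, and deposited raw counts per gene, without normalisation. The annotation and the strand setting of the counting are not given in the sources used here. The 4 lines of reads that were unmapped, multimapping, ambiguous or outside genes, 39.4% to 75.8% of a library, were left out. Gene names and exon lengths came from GENCODE M21, which named 53360 genes. Libraries were grouped by their labels, which do not name the mouse, so p-values are unpaired. The main analysis used edgeR 4.0.16 in R 4.3.3: filterByExpr (minimum count 10, minimum total 15), TMM, and a quasi-likelihood model with 1 coefficient for each of 8 groups over 24 libraries. Contrasts compared the sorts within regions, these differences between regions, and each sort between regions. Alternatives were DESeq2 1.42.0, other scalings, filters, covariates, thresholds, and each library left out. Correlations used log2 CPM with a prior count of 2. Named genes were the 10 members, *Guca2a*, *Guca2b*, up to 4 called genes with the largest difference per other list and region, and the 5 genes most like *Lgr5*, with *Cdca3* and *Gm11670* added after values were seen. Members and lists were chosen with earlier results of these data known.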

Additional observations from a re-analysis of the deposited data

Results flagged for a closer look

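For 6 genes the difference between positive and negative cells differed between regions by a test of the difference itself, edgeR's joint interaction test over the 4 regions. The duodenal log2 difference minus the mean of those of jejunum and ileum was 2.91 for *Sox9* (joint adjusted p = 0.000360), 2.44 for *Smoc2* (0.00170), 2.39 for *Olfm4* (0.0172), 1.71 for *Rgmb* (0.00267) and 1.52 for *Rnf43* (0.00881, all edgeR). For *Ascl2* it was 5.58 (joint adjusted p = 0.0378, edgeR), a fitted value that depends on 3 jejunal libraries without a count. The direction was the same for all 6 genes, with positive cells of the duodenum closer to negative cells than those of jejunum and ileum.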

How the results depend on the processing

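The members called in jejunum (9), ileum (9), the joint interaction (6) and positive cells among regions (7) stayed within 1.5 times these counts under every alternative run, at 7 to 9, 7 to 9, 4 to 8 and 6 to 8, and at 7 to 9, 7 to 9, 5 to 6 and 6 to 7 with 1 library left out. The 1 member called in the duodenum became 0 with library size alone, 4 without a filter on low counts, 3 with the compared libraries only and 0 at an adjusted p of 0.01, and ran from 0 to 2 with 1 library left out. The 4 in the colon became 6 with DESeq2, 5 without a filter or with the compared libraries only and 2 at an adjusted p of 0.01, and 2 to 4 with 1 library left out. The 3 among negative cells became 5 with DESeq2, 7 with library size alone, 5 without a filter, 5 with the i5 index as covariate and 1 at an adjusted p of 0.01, and 1 to 3 with 1 library left out. The cause of these shifts was not tested.

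Differences that changed sign had adjusted p values above the threshold before and after. *Ascl2* in the duodenum turned to 0.43 with library size alone, 0.0121 without a filter, 0.0261 with 10 counts in every library of a group and 0.0260 without mitochondrial genes, and *Rgmb* there to 0.12 with library size alone. *Axin2* in the jejunum turned to 0.0440 with DESeq2, 0.0448 with RLE factors, 0.24 with library size alone, 0.0161 without a filter, 0.0269 with 10 counts in every library of a group and 0.0717 without mitochondrial genes. With the i5 index as covariate *Tnfrsf19* in the colon turned to 0.0659 and *Rnf43* in positive cells, colon minus small intestine, to 0.0884, and with library size alone *Rnf43* in negative cells, colon minus small intestine, turned to -0.0403. In negative cells, duodenum minus jejunum and ileum, *Olfm4* turned to 8.30e-05 with DESeq2, 9.05e-05 with RLE factors, 0.10 with the i5 index and 0.00800 with the compared libraries only, and *Smoc2* to 0.00252 with DESeq2, 0.00255 with RLE factors, 0.00862 with 10 counts in every library of a group, 0.0241 with the i5 index and 0.0206 with the compared libraries only.

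With 1 library left out, the duodenal difference ranged from -0.68 to 0.52 for *Ascl2*, -0.0601 to 0.33 for *Rnf43* and -0.0521 to 0.39 for *Sox9*, that of *Axin2* from -0.91 to 0.25 in the jejunum and -0.49 to 0.13 in the ileum, and that of *Tnfrsf19* in the colon from -0.42 to 0.30. Between regions, the duodenal interaction of *Tnfrsf19* ranged from -0.0772 to 2.54 and its positive cells from -1.87 to 0.74, and in negative cells the same contrast ranged from -0.23 to 0.30 for *Olfm4*, -0.14 to 0.0747 for *Smoc2* and -0.42 to 0.18 for *Znrf3*. For the colon minus the small intestine the interaction ranged from -0.0701 to 1.21 for *Lgr5* and -0.29 to 0.0681 for *Rnf43*, negative cells from -0.42 to 0.60 for *Lgr5*, -0.31 to 0.90 for *Ascl2*, -0.0323 to 0.26 for *Rnf43* and -0.0214 to 0.41 for *Rgmb*, and positive cells from -0.12 to 0.12 for *Rnf43*. No paired analysis was possible because the labels do not name the mouse. A level at or under the floor of 3 counts is only an upper limit, and *Ascl2* and *Tnfrsf19* each had 0 counts in at least 2 libraries. The share of windows with a TCF motif was 9.33% for both motifs together.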
